A study of Mus musculus and Mus musculus musculus x Mus musculus castaneus with 8 samples.

Results

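The 2 peak lists compared here record the open chromatin of mouse embryonic fibroblasts (MEFs) before nuclear transfer (NT) and 48 h after NT into Xenopus laevis oocytes. They were the lists assigned to these conditions in the deposited data, and together they held 47849 of the 151729 peaks of the 5 lists of the study, 39592 in donor MEFs and 8257 after NT. A donor peak was called kept when a peak after NT overlapped it by at least 1 bp and lost otherwise, and a peak after NT that overlapped no donor peak was called gained. The study asked how chromatin accessibility in somatic nuclei changes while oocytes reprogram their transcription. Accessibility was measured by ATAC-seq, in which a transposase inserts sequencing adaptors into open DNA. The MEF line came from embryos of a cross of Mus musculus musculus with Mus musculus castaneus, and the cells were grown in DMEM with fetal bovine serum. Donor MEFs had been permeabilized as for NT and gave 1 library of 3000 cells. The MEFs 48 h after NT gave 2 libraries of 3000 cells, each from pooled oocytes of a separate NT experiment, and the oocytes were kept in MBS medium. All of these libraries were lysed with Triton X-100, which the protocol uses because transplanted cells are hard to permeabilize. MEFs transplanted into oocytes that overexpressed Toca1 (Fnbp1l, a protein that promotes actin polymerization) gave 1 further library of 3000 cells at 48 h, and C2C12 myoblasts gave the remaining lists, of which the one from 50000 cells is used. The Toca1 and C2C12 lists are used below only beside the MEF sites.

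In a somatic cell, open sites lie mainly at promoters and enhancers, where transcription factors and the transcription machinery displace nucleosomes. The giant nucleus of a Xenopus oocyte, the germinal vesicle, takes up many transplanted nuclei and exchanges their chromatin proteins with its own. The transplanted cells neither divide nor replicate their DNA there, so differences in accessibility arise on the same chromosomes.

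Each list gives only the chromosome, start and end of its peaks, and 0.01 was the false discovery rate of the calls. Neither heights nor reads are recorded. The depth of the libraries is therefore unknown, and a longer list or wider peaks can come from more reads. The 2 libraries after NT share 1 list, and whether their reads were pooled before peak calling is not given in the sources used here. The condition, the library and its depth cannot be told apart in this comparison. No test between conditions is possible, and there is no spread between replicates. Intervals are 95% intervals over peaks (Wilson for shares, order statistics for medians). They cover counting error only, and neighbouring peaks are not independent. "Lost" and "gained" thus refer to called peaks and not to signal. The labelled cell type could not be checked against marker genes, since no annotation in the build of the lists was used here. Positions are 1-based in mm9. Both lists covered chromosomes 1 to 19 and X, held no peak narrower than 150 bp and had 0 overlaps within a list.

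Before the values, the upstream sequences of 4 genes are shown as examples of promoters with gained peaks. They were chosen from genes of the pluripotency and germ cell lists given below whose gained peak the gene table of the study places at the promoter, by the width of that peak. Ddx43 encodes an RNA helicase of germ cells. Nodal encodes a ligand of the TGF-beta family, Utf1 a chromatin-bound factor of embryonic stem cells, and Fgf4 a growth factor of the early embryo. Each run is the 250 bases before the RefSeq start, 5′ to 3′, with CG dinucleotides in capitals. The positions are in GRCm38.p6, another build than that of the lists, so whether a peak covers the printed bases was not determined.
Ddx43, chr9:78395527-78395776, + strand: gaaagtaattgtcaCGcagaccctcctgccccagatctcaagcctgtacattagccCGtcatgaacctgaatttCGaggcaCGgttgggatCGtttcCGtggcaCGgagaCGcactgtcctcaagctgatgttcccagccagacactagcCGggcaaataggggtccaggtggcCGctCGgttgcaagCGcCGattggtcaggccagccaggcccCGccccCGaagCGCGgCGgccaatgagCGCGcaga
Nodal, chr10:61417722-61417971, + strand: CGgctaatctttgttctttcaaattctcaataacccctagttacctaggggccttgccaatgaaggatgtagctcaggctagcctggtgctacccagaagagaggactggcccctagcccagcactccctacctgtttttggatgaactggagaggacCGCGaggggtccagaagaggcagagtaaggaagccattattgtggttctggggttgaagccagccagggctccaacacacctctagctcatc
Utf1, chr7:139943606-139943855, + strand: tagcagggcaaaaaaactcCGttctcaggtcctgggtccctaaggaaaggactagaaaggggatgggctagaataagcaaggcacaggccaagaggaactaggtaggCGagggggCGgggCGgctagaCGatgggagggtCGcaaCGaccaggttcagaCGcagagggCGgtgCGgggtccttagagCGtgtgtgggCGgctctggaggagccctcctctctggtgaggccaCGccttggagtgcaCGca
Fgf4, chr7:144861136-144861385, + strand: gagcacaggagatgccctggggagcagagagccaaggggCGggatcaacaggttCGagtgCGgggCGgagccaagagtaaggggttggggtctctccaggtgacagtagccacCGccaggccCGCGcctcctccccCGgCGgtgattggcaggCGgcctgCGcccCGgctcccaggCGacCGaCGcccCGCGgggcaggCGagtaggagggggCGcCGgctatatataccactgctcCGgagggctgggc
The numbers of CG dinucleotides were 20 in Ddx43, 3 in Nodal, 14 in Utf1 and 21 in Fgf4, against a median of 10 in the 21263 promoters of protein coding genes. The ratio of observed to expected CG was 0.845 in Ddx43, 0.638 in Utf1, 0.675 in Fgf4 and 0.170 in Nodal, beside a median of 0.530 over all promoters. Nodal was thus the CG-poor promoter among them. Searched on both strands, the string AGGTCA, a unit within retinoic acid receptor sites and not a whole site, occurred in 12.8% of all promoters. The string AGATAA, bound by GATA factors, occurred in 8.81%. For TGACTCA, bound by AP-1, the share was 4.06%. No string contains another, and none of the 4 printed windows held any of them. Binding was not measured, so neither the presence nor the absence of a string is read as binding or its lack. No composition of the whole set is given, because RefSeq promoters matched 146 of the 219 genes with a gained peak at the promoter, which is too few for such a check.

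Most donor sites had no called peak after NT. Of the 39592 donor peaks, 3854 were kept, which is 9.73% (9.45 to 10.0%), and 35738 were lost. Seen from the list after NT, 3873 of the 8257 peaks, 46.9% (45.8 to 47.98%), lay on a donor peak and 4384 were gained. These shares are the background against which the classes below are read. They depend on the matching rule. With a reciprocal overlap of 50% the kept share was 6.13% and the share of peaks after NT on donor peaks 29.4%. When the donor list was cut to its widest peaks, as many as after NT, these shares were 21.0% and 21.8%. With peaks under 250 bp left out of both lists, 2138 peaks were gained. In bases, the shared DNA amounted to 1.31 Mb, or 7.49% of the 17.4 Mb covered in donor MEFs and 46.6% of the 2.80 Mb covered after NT. Overlaps were seldom marginal. The median overlap of the 3942 overlapping pairs was 310 bp, and 80 pairs (2.03%) shared fewer than 50 bp. Lost sites were narrower than kept ones in the donor list, with a median of 386 bp (384 to 388) against 548 bp (541 to 555). After NT, gained peaks had a median of 244 bp (241 to 248) and peaks on donor sites 376 bp (370 to 383).

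Donor width ordered the kept share. Among donor peaks split into 10 classes of equal number, 3.43% (2.91 to 4.05%) of the narrowest class were kept and 2.85% (2.38 to 3.42%) of the next. From there the share rose in every class, through 9.50% at a median width of 422 bp, to 25.5% (24.1 to 26.8%) in the widest class, whose median was 791 bp. Of the 384 donor peaks of 1000 bp or wider, 125 were kept, or 32.6% (28.1 to 37.4%), so that even there lost sites outnumbered kept ones. The peaks after NT showed the same order more steeply. In their narrowest class 16.8% (14.4 to 19.5%) lay on a donor peak, and in the widest 86.7% (84.2 to 88.8%). A wide peak overlaps another more easily than a narrow one, and the part of this in the order was not separated from it.

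**Figure D1:**
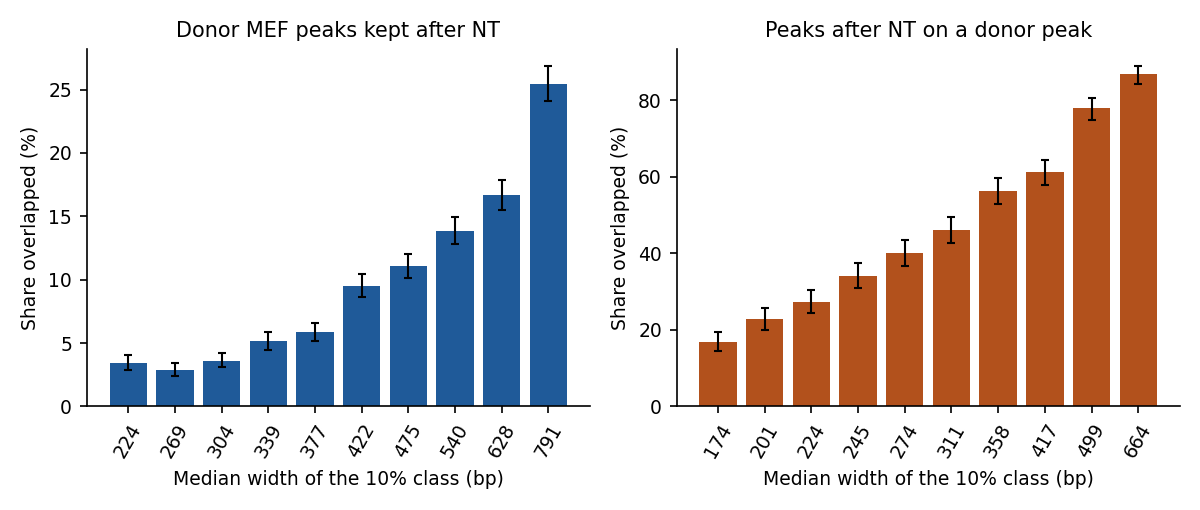
Share of donor MEF peaks overlapped by a peak after NT (left) and of peaks after NT lying on a donor peak (right), in percent, for 10 width classes of equal number labelled by their median width in bp. Bars are shares and whiskers 95% Wilson intervals. The left share lies between 2.85% and 25.5%, the right between 16.8% and 86.7%.

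The widest lost donor peak spanned 1688 bp at chr6:113025952-113027639, and a peak of the Toca1 list and a C2C12 peak overlapped this position. The next, of 1529 bp at chr6:108609204-108610732, had a C2C12 peak and no Toca1 peak. The one after that, of 1496 bp at chr1:82358173-82359668, had neither. The 3 widest gained peaks spanned 1106 bp at chr11:77029019-77030124, 1053 bp at chr15:97661085-97662137 and 1002 bp at chr8:70800261-70801262. All 3 coincided with peaks of the Toca1 list and of C2C12 cells, so these wide gained sites were called open in another cell type of the study and under Toca1. Among the widest 10% of all peaks after NT, kept or gained, 84.6% had a Toca1 peak and 88.5% a C2C12 peak. Nothing particular to these 3 sites is therefore read from the overlaps.

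Peaks were narrower after NT, both at kept sites and in the list as a whole. Over all peaks, the median was 399 bp before NT and 291 bp after it. The narrowing is therefore not read as particular to kept sites. At 3635 sites 1 donor peak and 1 peak after NT overlapped only each other. There the median width was 550 bp (542 to 556) before and 378 bp (371 to 385) after NT, and the median ratio of the width after NT to the donor width was 0.722 (0.708 to 0.734). The peak after NT was narrower at 2804 sites, or 77.1% (75.7 to 78.5%), wider at 825 and equal at 6. The change varied widely between sites. The ratio ran from 0.318 at the 5% quantile through 0.513 at 25% and 0.970 at 75% to 1.51 at 95%. A width within 50 bp of the donor width was found at 15.6% of the sites, and at 5.17% the peak after NT was at least 1.5 times as wide.

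In the medians over sites, the loss of width was even on both sides. The lower end moved inward by a median of 62 bp (56 to 68) and the upper end by 61 bp (54 to 67). Accordingly the centre moved by 0.5 bp in the signed median, with an interval of -3.5 to 5.5, while its absolute shift had a median of 86.5 bp (82.5 to 90). At 32.0% of the sites the centres lay less than 50 bp apart, and at 10.6% more than 250 bp. The centre of the peak after NT remained inside the donor peak at 92.0% of the sites. The peak after NT lay wholly within the donor peak at 1650 sites, 45.4% (43.8 to 47.0%), where the donor peaks were wide, at a median of 619 bp. It extended past the lower end only at 23.2% and past the upper end only at 24.4%. At 254 sites (6.99%) the donor peak lay wholly inside a wider peak after NT, where the donor peaks had a median of 402.5 bp, close to the 399 bp of the whole donor list. A peak that lies inside another is the narrower one by definition. The loss at both ends thus describes the medians and not each site, since many peaks after NT reached past a donor end. In the median, 62.4% of the donor bases were covered after NT.

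How much width was lost depended on which list ordered the sites. Classed by donor width, the median ratio fell in every step from 1.07 in the narrowest 10% to 0.477 in the widest 10%. Classed by width after NT, it rose from 0.411 to 1.18. An order by one of the widths in the ratio moves the ratio by itself, so neither trend says which sites changed more. In the middle classes of both orders the ratio lay between 0.715 and 0.734.

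**Figure D2:**
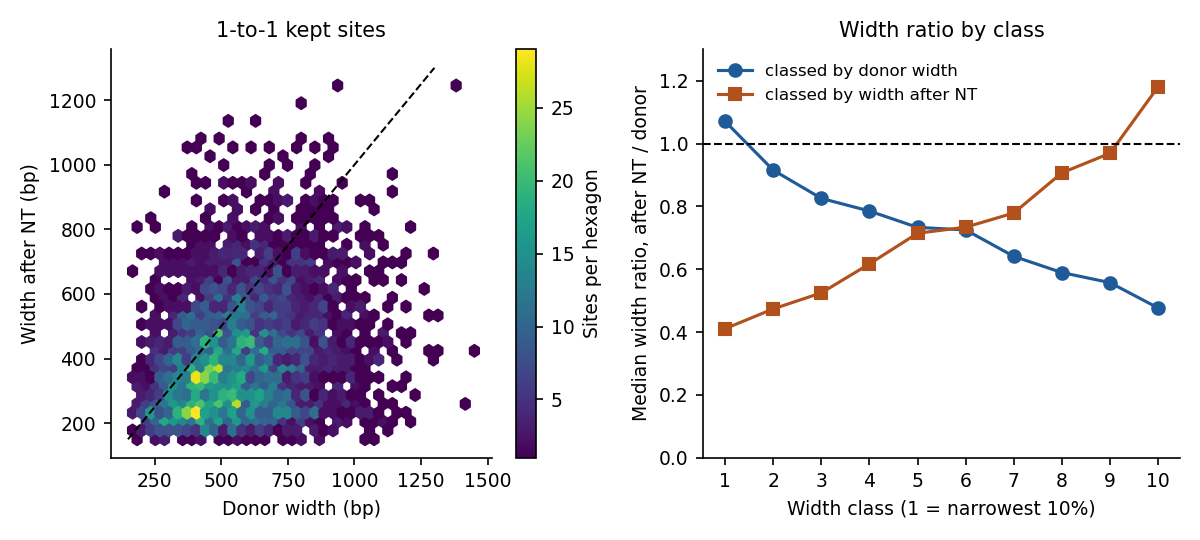
Widths at the 3635 kept sites with 1 peak in each list. Left, width after NT against donor width in bp, with colour for the number of sites per hexagon and a dashed line at equal width. Right, median width ratio for 10 classes ordered by donor width (circles) or by width after NT (squares), with a dashed line at 1. Most sites lie below equal width, and the 2 orders slope in opposite directions, from 1.07 to 0.477 and from 0.411 to 1.18.

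The Toca1 list gave other widths at the same sites. At 2425 of these sites that also had 1 peak in the Toca1 list, the median widths were 577 bp in donor MEFs, 416 bp after NT and 726 bp after NT with Toca1. Relative to the donor, the median ratio was 0.734 after NT and 1.23 with Toca1, and the share of narrower sites was 76.0% and 33.1%. Narrowing was thus not shared by both NT lists. The Toca1 list also held more peaks, 16412, and the depths of these libraries are unknown.

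Single sites reached beyond these medians in both directions. The largest loss of width was at chr14:76954854-76956256, where a donor peak of 1403 bp held a peak of 254 bp after NT and none in the Toca1 list. The next was a donor peak of 1445 bp at chr2:17985964-17987408, with 421 bp left after NT, and this site had a Toca1 peak. The largest gain, 698 bp, was at chr14:64055103-64055466, where 364 bp before NT became 1062 bp at chr14:64055124-64056185, with no Toca1 peak. The widest peak after NT among these sites, of 1256 bp at chr5:109985538-109986793, lay on a donor peak of 1370 bp, so this site was wide in both lists.

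A few sites had more than 1 peak on a side. On 88 donor peaks there were 2 peaks after NT, and 69 peaks after NT bridged 2 donor peaks. No peak had more than 2 partners.

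Gained peaks lay at all distances from donor sites. Of the 4384 gained peaks, 139 (3.17%) were less than 100 bp from a donor peak, and 335 (7.64%) were at 100 bp or more but less than 500 bp. The share of the genome at these distances was not computed, so the shares do not say whether gained peaks are scarce or frequent beside donor peaks. The largest class, 2519 peaks or 57.5% (56.0 to 58.9%), lay 5 to 50 kb away, and 12 peaks lay 500 kb or more from any donor peak. The median distance was 12498.5 bp and the maximum 1738146 bp.

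Along the chromosomes the lists differed in spacing, largely as their numbers of peaks did. The nearest other lost peak lay a median of 10608.5 bp from a lost peak. Kept donor peaks, fewer in number, lay 103751 bp (97974 to 108561) from each other, and gained peaks 89972.5 bp (86135 to 95332). Measured against the full donor list, the classes had similar numbers of peaks around them. The median number of other donor peaks within 100 kb was 6 for lost and 6 for kept peaks, and a gained peak had 5 donor peaks within that distance. A kept peak was, however, farther from its nearest donor neighbour, with a median of 11684.5 bp (10965 to 12307) against 9471 bp (9268 to 9652) for lost peaks. Kept peaks were also wider, so these medians do not compare peaks of like width.

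Distance to the nearest donor peak was not related to the kept share in 1 direction. Of donor peaks with a neighbour at less than 500 bp, 11.2% (10.4 to 12.11%) were kept. Donor peaks under the same peak after NT all count as kept, and 69 pairs less than 1000 bp apart were of this kind. The part of this double count in the shares at short distances was not separated. The kept share was lowest at 2 to 5 kb, with 6.24% (5.58 to 6.97%). It was 11.6% (10.9 to 12.3%) at 20 to 50 kb and 6.91% (5.69 to 8.37%) for peaks 100 kb or more from any other. As width differed between these classes, the donor peaks were also split at their median width of 399 bp. In the wider part the share followed the same course, with 18.1%, 10.4%, 17.5% and 10.6% at these distances. In the narrower part it was 6.93% at less than 500 bp and between 2.79% and 4.31% in all classes from 1000 bp on. Grouped more coarsely, 8.46% of peaks with a neighbour within 5 kb and 8.93% of peaks at 50 kb or more were kept, a difference of -0.47 percentage points whose interval of -1.49 to 0.49 includes 0. With peaks joined up to 150 bp apart it was -1.39 points (-2.42 to -0.40), and with limits of 2 kb and 20 kb -0.99 points (-1.83 to -0.14), so that these intervals lie below 0. It turned to 2.41 points when peaks within 500 bp were counted as the same site. The order also changed within classes of donor width. Among the narrowest 25% of donor peaks 3.62% near another peak and 3.30% of isolated ones were kept, and in the next class 6.30% (5.53 to 7.16%) and 2.79% (1.964 to 3.96%). In the following class the shares were 11.4% (10.3 to 12.6%) and 9.20% (7.66 to 11.02%), and among the widest 25% they were 18.2% and 18.4%. The pooled difference therefore does not describe donor peaks of like width.

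**Figure D3:**
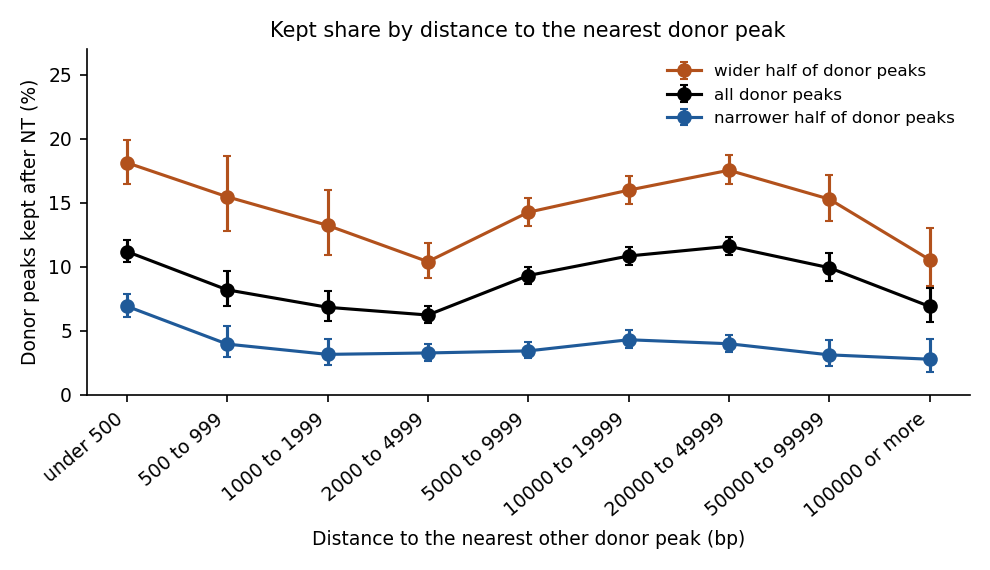
Percent of donor peaks kept after NT against the distance in bp to the nearest other donor peak, for all donor peaks and for the parts wider and narrower than the median. Points are shares and bars 95% Wilson intervals. The share of all peaks dips to 6.24% at 2 to 5 kb and lies at 11.2% and 11.6% at less than 500 bp and at 20 to 50 kb.

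Kept peaks followed each other slightly more often than they followed lost ones. The donor peak after a kept one was kept in 13.3% (12.2 to 14.4%) of cases and the one after a lost one in 9.36% (9.06 to 9.66%). At gaps under 1000 bp the shares were 28.2% and 8.69%, and of the 100 such adjacent kept peaks 69 were pairs under the same peak after NT. At 1 to 5 kb the order was the other way, with 5.37% (3.17 to 8.97%) after kept and 6.35% (5.59 to 7.22%) after lost peaks, and these intervals overlap. At 20 to 50 kb they were 13.5% (11.6 to 15.7%) and 10.7% (10.1 to 11.4%). The difference over all gaps, 3.91 percentage points, was 1.32 points with reciprocal overlap and 11.7 points with peaks within 500 bp counted as the same site.

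In the order of donor peaks, most runs of kept peaks were single peaks between stretches of lost ones. With 9.73% of donor peaks kept, runs of this kind follow largely from the number, and no pattern is read from them. Of 3343 runs of kept peaks, 2900 were single peaks, 382 held 2, 55 held 3 and 6 held 4 or more. The longest kept run comprised 5 donor peaks in 133.6 kb at chr1:136258426-136391991. All 5 also had a Toca1 peak, as did 72.8% of all kept donor peaks, and the median donor width of the 5 was 785 bp. The 3359 runs of lost peaks had a median of 7 donor peaks, and 233 runs of at least 30 held 27.1% of all lost peaks. The longest lost run took in 128 donor peaks over 10.2 Mb at chr6:97768176-108011474. In this interval 7 gained peaks were called after NT, and 6 of the 128 donor peaks had a peak in the Toca1 list. A further run of 91 lost peaks extended over 4.86 Mb at chr2:113216378-118075001 and held 1 gained peak.

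Whole chromosomes differed in the share kept. It was lowest on chromosome X, with 5.87% (4.50 to 7.62%), and highest on chromosome 11, with 13.02% (11.8 to 14.4%). The same chromosomes had the lowest and highest numbers of donor peaks per Mb, 5.32 and 20.4, and of peaks after NT per Mb, 0.679 and 6.31. Chromosome 11 also gained most, with 3.59 gained peaks per Mb against 0.355 on X. The share of peaks after NT that lay on donor peaks ranged from 39.6% (33.4 to 46.2%) on chromosome 12 to 53.1% (47.9 to 58.3%) on chromosome 3. These are the extremes of all chromosomes, picked from the same values, so no difference between chromosomes is read from their intervals. The median width ratio at kept sites was below 1 on every chromosome, from 0.664 on chromosome 4 to 0.775 on chromosome 5.

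**Figure D4:**
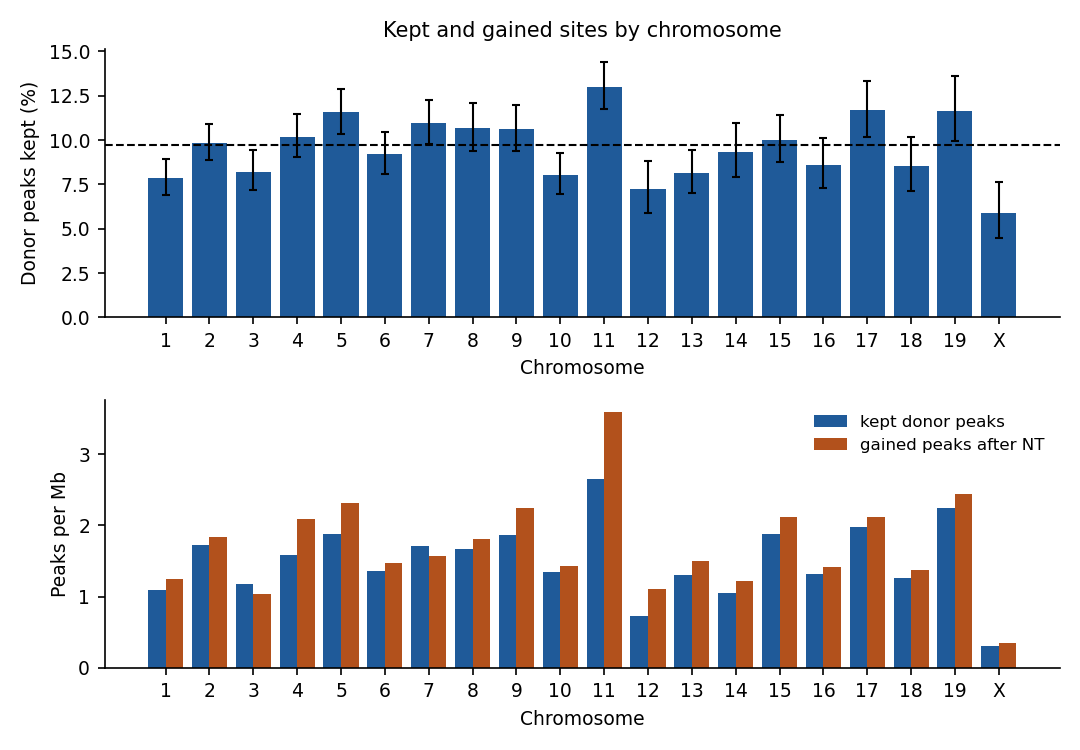
Top, percent of donor peaks kept after NT on each chromosome with 95% Wilson intervals and the share of all donor peaks as a dashed line (9.73%). Bottom, kept donor peaks and gained peaks per Mb of chromosome. Chromosome 11 has the highest values in both panels and X the lowest.

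Regions rich in donor peaks also held most kept and most gained peaks. In 1 Mb bins, the kept share was 6.98% (5.52 to 8.80%) where a bin had 1 to 4 donor peaks and 11.3% (10.8 to 11.9%) where it had 30 or more. Gained peaks numbered 8.59 per 100 donor peaks in the former bins and 12.05 in the latter. Of 2649 bins, 563 had donor peaks but none after NT, and these held 3471 donor peaks. In 21 bins there were peaks after NT but no donor peak. Across bins, the numbers of donor peaks and of peaks after NT had a Spearman rho of 0.811. The bins share their gene and base content and neighbours are not independent, so this is a description.

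**Figure D5:**
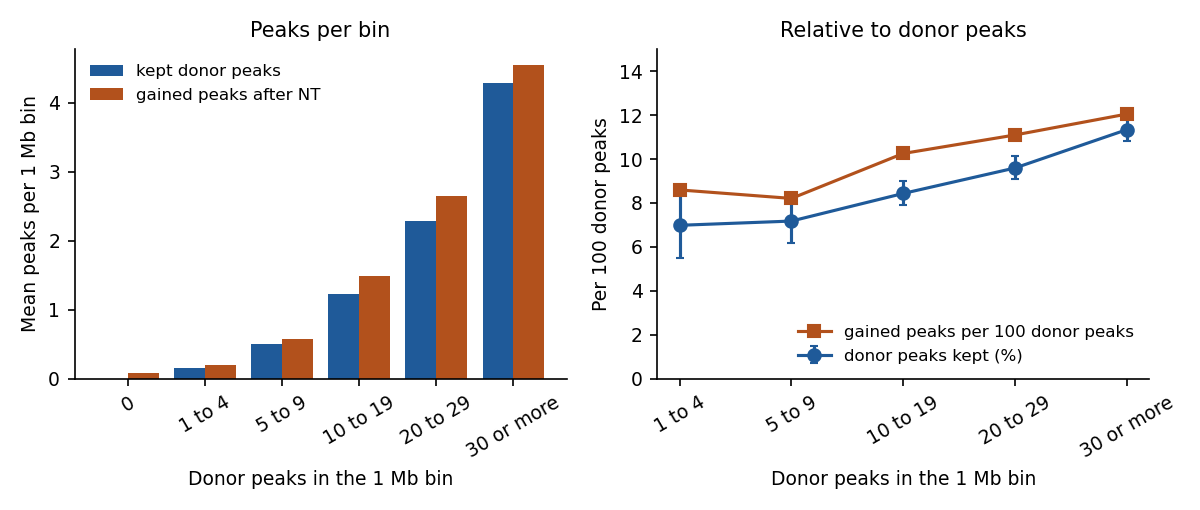
Left, mean number of kept donor peaks and of gained peaks per 1 Mb bin, for bins grouped by their number of donor peaks. Right, percent of donor peaks kept (circles, 95% Wilson intervals) and gained peaks per 100 donor peaks (squares) in the same groups. The kept share is 6.98% in the first group and 11.3% in the last. Gained peaks per 100 donor peaks go from 8.59 through 8.21 at 5 to 9 donor peaks to 12.05.

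The list after NT was the more concentrated. The 265 bins with the most peaks of each class, 10% of all bins, held 27.1% (26.7 to 27.6%) of donor peaks and 38.9% (37.8 to 39.9%) of peaks after NT. For gained peaks the share was 44.0% (42.6 to 45.5%). For kept donor peaks, a class of similar number, it was 41.4% (39.8 to 42.9%). Bins were ranked separately for each class, and a class with fewer peaks per bin concentrates in its top bins by number alone. The bin with most peaks after NT, chr11:116000001-117000000, had 24 of them, 19 gained, beside 35 donor peaks. The bin with most donor peaks, chr8:73000001-74000000, had 67 of which 13 were kept, with 5 gained. By contrast, chr15:6000001-7000000 and chr2:117000001-118000000 had 32 donor peaks each and 0 peaks after NT.

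Gained peaks formed small groups. When gained peaks up to 50 kb apart were joined, 2917 stood alone and 33.5% (32.1 to 34.9%) had another within 50 kb. There were 496 groups of 2, 110 of 3 and 31 of 4 or more. Kept peaks lay near each other about as often. Another kept peak within 50 kb was found for 30.7% of kept donor peaks and 31.5% of kept peaks after NT. The grouping is therefore not read as particular to gained peaks. Genes were named only where the gene and peak tables of the study pair a peak with a gene. Where a peak of a group or gap is said to be paired with a gene, that gene is only the nearest one. The distance to it is not given, and the peak is not placed in the gene. The newly opened peaks of the study lie at least 5 kb from any donor peak. The 1238 gained peaks nearer than that are therefore not among them. The copy of the peak table used here is also shortened, so a peak without a named gene is only not paired here. The first of the 3 groups with 7 peaks lay at chr11:116204596-116288898. The tables place 5 of its peaks in Rnf157, which encodes an E3 ubiquitin ligase, and pair 1 with Ubald2. It held 2 donor peaks in its span, and 2 of its 7 peaks had a Toca1 peak. The second, at chr4:133358220-133495154, is paired with Arid1a, a subunit of the SWI/SNF remodelling complexes, for 1 peak and with Rps6ka1, a kinase of the MAPK pathway, for 4. Of its 7 peaks 3 had a Toca1 peak. The third, at chr5:123845140-124007912, had narrow peaks with a median of 204 bp, 1 of them paired with the cytokine gene Il31, and none with a Toca1 peak.

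Donor-poor stretches gained few peaks. Between consecutive donor peaks there were 701 gaps of 500 kb or more, which made up 32.8% of the span of the chromosomes. They held 247 gained peaks, 5.63% of all, or 0.285 per Mb against 2.33 per Mb elsewhere. These rates are per Mb of span, and how much of it reads can be mapped to was not computed. Among peaks of at least 250 bp the number of gained peaks in such gaps was 106. The longest gap, of 10.1 Mb on X, held 1 gained peak, at chrX:23585471-23585746, paired with Gm4907 and present in the Toca1 list. A gap of 4.74 Mb on chromosome 4 held 2, the first of them, at chr4:38196968-38197293, being the gained peak farthest from any donor peak, at 1738.15 kb. The tables give 1700009N14Rik as the nearest gene of both peaks, and neither peak was in the Toca1 list. The next such gap, of 4.58 Mb on X, held 1 peak paired with Cpxcr1 and 1 with Gm14920.

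The gene table used here lists 495 genes with 541 peaks in gene bodies or at promoters, and all 541 were gained peaks of the present comparison. It was drawn up by the study from these libraries, so that its direction is not independent evidence. The paper describes such genes as having no peak in MEFs and gaining one after NT. Genes with a donor peak could therefore not enter the table. Of its genes 5 had 3 or more gained peaks. Hkdc1, a member of the hexokinase family, had 4 in its body within chr10:61848470-61865027, of 224 to 387 bp, all 44.97 to 52.308 kb from the nearest donor peak. None of these was in the Toca1 list. Itga9, an integrin subunit, had a promoter peak of 563 bp at chr9:118515649-118516211, in the Toca1 and C2C12 lists, and 3 narrower peaks of 199 to 258 bp in its body that were in neither. The 3 peaks of Myb, a transcription factor of blood progenitors, were 628 bp at the promoter, chr10:20880543-20881170, and 280 and 212 bp in the gene body. All 3 were in the Toca1 list and none in C2C12 cells. Colq, which anchors acetylcholinesterase, had 3 peaks of 208 to 266 bp, and Efcab6, an EF-hand protein, 3 of 150 to 549 bp. None of these was in the Toca1 list. Among 34 genes with 2 peaks the gap between the peaks ranged from 99 to 286145 bp. In 7 of them it was under 1000 bp, as in Areg, an EGF receptor ligand, and Ucp2, a mitochondrial carrier, with gaps of 99 and 107 bp.

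Gene families were set beside the table, with 442 of 21900 protein coding genes (2.02%) listed in it. The 21900 include genes with a donor peak, which could not be listed, and their number was not determined. All gene lists, those of pluripotency and germ cells included, were drawn up after the names in the table had been read. Their shares are therefore a description, and no excess over 2.02% is read from them. Of 23 pluripotency genes 4 were listed, namely Utf1, Zscan10, Fgf4 and Nodal. The gained peaks at the promoters of Utf1, Fgf4 and Nodal had similar widths of 335, 332 and 347 bp and lay 7.267, 53.213 and 22.772 kb from the nearest donor peak. None of these 3 was in the Toca1 list, whereas the peak of 387 bp in Zscan10, a zinc finger factor of embryonic stem cells, was. Of 30 germ cell genes 8 were listed. The widest of their peaks was that of Ddx43, 691 bp at chr9:78243606-78244296. Those of Syce2, a component of the synaptonemal complex, Tdrd5, a tudor domain protein of germ granules, and Kit, the stem cell factor receptor, were 290, 329 and 246 bp at promoters. These 4 promoter peaks all had a Toca1 peak. The peaks in the gene bodies of Figla, Ddx25, Sycp1 and Tdrd6 did not, and none of the 8 was in the C2C12 list. Over all gained peaks 19.8% had a Toca1 peak and 13.8% a C2C12 peak, and with so few genes nothing particular to them is read from these overlaps.

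The share listed varied between the other families. Of 39 Hox genes 2 were listed, Hoxb3 and Hoxc8, of 22 FGF ligands 4, of 19 WNT ligands 2, of 92 potassium channel genes 9 and of 21 transporters of the SLC6 family 5. No collagen gene of 44 and no odorant receptor gene of 1106 was listed. These families were chosen after the names in the table had been read, and the copy of the table used here may be incomplete, so the counts are a description. A gene that is not listed may have had a donor peak already. Absence from the table thus does not show that no peak was gained at a gene.

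At 3 loci the peaks within 50 kb were followed across the lists. Around the gained Utf1 promoter peak, chr7:147129498-147129832, the donor list had 6 peaks, of which 1 was kept, at chr7:147164380-147164721, with 342 bp before and 180 bp after NT. The Toca1 list had 2 peaks there, neither on the Utf1 peak. Around the gained peak of 170 bp in Hoxc8, chr15:102822864-102823033, there were 3 donor peaks, all lost, and 5 Toca1 peaks. The nearest Toca1 peak was 6.574 kb away, so the Hoxc8 site itself had a peak after NT and none in the donor, Toca1 or C2C12 lists. Near the shared start of Tcf19 and Cchcr1 a donor peak of 501 bp at chr17:35653703-35654203 was kept with 307 bp, and the Toca1 list had 659 bp at this place. Here the site was narrower after NT and wider with Toca1, the order of the medians over kept sites. The other 2 donor peaks within 50 kb of it were lost.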

How the data were processed

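ATAC-seq peak lists of 5 conditions were deposited by the authors, 1 list per condition. The submitters' processing notes name Bowtie2 2.2.1, Picard, MACS2 2.1 and the mm9 build, and the list names give a false discovery rate of 0.01. Further parameters and the treatment of duplicate reads and replicates are not given in the sources used here. The deposited values are positions only, so no count test applied, and 0 other columns of per-sample values were present.

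Lists were taken to their conditions by name, and starts were changed to 1-based. Overlap, widths at 1-to-1 sites, edge-to-edge distances, runs, 1 Mb bins and gaps were computed in Python 3.11.15 with numpy 2.4.6 and pandas 2.3.3. The code was tested on simulated data with known kept, lost and gained sites. Named genes were those with 3 or more gained peaks in the gene table, those paired with the 3 largest gained groups and the 3 longest donor gaps with gained peaks, 3 loci of the study, and members of the gene lists. The comparison, members and lists were chosen with earlier results of these data known. Promoter bases came from RefSeq (GRCm38.p6). The alternatives were joined peaks, a width filter, autosomes only, reciprocal or loose overlap, the widest donor peaks only, gained peaks at least 5 kb from donor peaks, other bins and distances, and every overlapping pair.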

Additional observations from a re-analysis of the deposited data

Results flagged for a closer look

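Lists outside the comparison also held peaks at lost and gained sites. In the Toca1 list, 14.0% (13.6 to 14.3%) of lost donor peaks had a peak, against 72.8% (71.4 to 74.2%) of kept ones, so 4993 sites without a peak in the list after NT had one in the other NT list. Together 77.7% of donor peaks had a peak in neither NT list. Of the gained peaks, 19.8% (18.6 to 21.0%) had a Toca1 peak and 13.8% (12.8 to 14.8%) a peak in C2C12 cells, while 73.9% were in neither of these lists. Peaks after NT on donor sites had a C2C12 peak in 92.2% (91.3 to 93.0%) of cases. Among donor peaks the C2C12 share was 92.7% (91.8 to 93.5%) for kept and 61.5% (61.0 to 62.0%) for lost ones, so most lost sites also had a C2C12 peak. Kept donor peaks were wider than lost ones, and wide donor peaks met both other lists more often. In the narrowest 10% of donor peaks the C2C12 share was 42.7% and the Toca1 share 8.16%. In the widest 10% these were 88.3% and 45.1%. The lists hold no control condition at these sites, the Toca1 list stands for 1 library, and the parts of width and depth in these shares were not tested.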

How the results depend on the processing

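Of the 73 alternatives, 38 left a value inside its interval (for counts, within 1.5 times), 34 moved it and 1 reversed a direction. Autosomes only moved no value. The kept share was 8.59% with peaks of at least 250 bp only, 6.13% with a reciprocal overlap of 50%, 11.7% within 500 bp and 21.0% for the widest donor peaks, as many as the list after NT holds. For peaks after NT on donor peaks these settings gave 58.9%, 29.4%, 52.6% and 21.8%, and the width filter left 2138 gained peaks. The width ratio was 0.705 with peaks joined up to 150 bp apart, 0.779 with the width filter and 0.822 with reciprocal overlap, and the last 2 gave 73.8% and 71.6% narrower sites and 40.3% and 41.0% inside the donor peak. The centre shift was 95.5 bp with joined peaks, 64.5 bp with reciprocal overlap and 93 bp over every overlapping pair. The difference in kept share by neighbour distance was -1.39 percentage points with joined peaks and -0.99 with limits of 2 kb and 20 kb, both with intervals below 0. It turned to 2.41 percentage points within 500 bp, where 1 peak can match 2 neighbours more easily than by overlap. For the same choice the difference after kept and lost peaks was 11.7 points, against 2.65 with joined peaks and 1.32 with reciprocal overlap. The spacing of gained peaks was 170406 bp with the width filter, 66878 bp with reciprocal overlap and 100419 bp within 500 bp, and their share with another within 50 kb was 23.0%, 41.6% and 31.6%. That share was 15.7% at 20 kb and 52.9% at 100 kb. The difference in the densest bins was 15.1 points with the width filter and 12.9 points in 500 kb bins. Gained peaks in donor gaps numbered 106 with the width filter and 96 in gaps of 1 Mb or more.

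No paired analysis was possible because each condition has 1 list and no test was run. The unknown depth limits every lost site: a site under the threshold of the caller in 1 list is not shown to be closed. Leaving out a replicate was not run, as the lists do not separate them.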
